A study of Sus scrofa with 16 samples.

Results

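The chemokines IL8, CXCL2, CXCL10, CXCL12, CCL2, CCL4, CCL5, CCL20, CCL25 and CCL28 were followed in the colonic mucosa and the liver of pigs. They are 10 of the 35458 gene names on the array, and their 17 probes, of 43603 in all, were chosen by the gene name that the array files give them. IL8, CXCL2, CXCL10, CXCL12 and CCL2 had 2 probes each, CCL5 had 3, and CCL4, CCL20, CCL25 and CCL28 had 1 each. The animals were Duroc × Landrace × Large White barrows, castrated males, that entered the trial at 70 days of age and were slaughtered at 170 days, on day 100 of the feeding trial. The control group ate a corn and soybean diet with purified corn starch (CS), and in the second group the same amount of purified raw potato starch (RPS), which resists digestion in the small intestine, took its place. The diets held 230 g/kg of the purified starch in the growing phase and 280 g/kg in the finishing phase, which began when the pigs were 120 days old. Each of the 4 groups (colon CS, colon RPS, liver CS and liver RPS) had 4 arrays with 1 pig per array, and all 4 groups had the same breed cross, sex and age. The mucosa was scraped from the proximal colon and holds epithelial, immune and stromal cells together, so that fewer cells of a type and less RNA per cell cannot be told apart. The labels do not say whether arrays of the 2 tissues with the same number came from the same pig.

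Chemokines are small secreted proteins that guide white blood cells along a gradient by binding G protein-coupled receptors. Their names follow the spacing of the first cysteines, which are separated by another residue in the CXC family and adjacent in the CC family. In the gut, epithelial cells secrete some of them to draw neutrophils, dendritic cells and antibody-secreting cells to the mucosa, whereas in the liver they are made by hepatocytes, endothelium, resident macrophages and infiltrating lymphocytes. IL8, which RefSeq now lists as CXCL8, and CXCL2 attract neutrophils, both through CXCR2 and IL8 also through CXCR1. CXCL10 is induced by interferon and attracts activated T cells through CXCR3, and CXCL12 retains leukocytes and progenitor cells in tissues through CXCR4. CCL2 attracts monocytes through CCR2, and CCL4 and CCL5 attract T cells and monocytes. CCL20, CCL25 and CCL28 are mucosal chemokines that act through CCR6, CCR9 and CCR10.

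The array reads each transcript through 60-base probes, and genes with more than 1 probe were read at different places, except CXCL2. The CXCL2 probes start at bases 960 and 949 of the same transcript and overlap. The first 30 bases are shown here for the probes with the largest tissue differences (IL8, CCL20, CCL28) and for CXCL12, whose probes gave unequal readings, 5′ to 3′, as the array files give them:
IL8 A_72_P413808: aacaagcaaaaacccattctccgtggctcc
IL8 A_72_P232367: tgactgcaagctttgttatgcagtgctgta
CXCL12 A_72_P713558: gacggcaaatccatcaacctcaaactcaca
CXCL12 A_72_P232477: ttgaagtggattcaggaatacctggagaaa
CCL20 A_72_P177441: atgtaaaaacagatgctccctgctatggaa
CCL28 A_72_P077321: agggtaccataaacacctgtatgcctttac
The CXCL12 probes were designed on different transcript records of the gene. The CXCL2 probes A_72_P146411 and A_72_P732383 are not independent readings, because both contain the same run of 29 bases, aatgccttgtttagagttaattacactgt, which is at bases 1 to 29 of the former and at bases 12 to 40 of the latter. The CCL5 probe A_72_P115401 is shown whole, since its difference between the tissues was the smallest of the 3 CCL5 probes: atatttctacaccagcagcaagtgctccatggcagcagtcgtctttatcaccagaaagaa. In the pig gene table of RefSeq (assembly Sscrofa11.1) CXCL2 and IL8 are neighbors with 4 protein-coding genes between them, and CCL4 and CCL5 have 5 between them.

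On each array 61.1% to 72.2% of all probes had a spot well above the local background, and no spot was saturated. The median signal was 56.3 to 70.8 in the colon CS group and 34.2 to 42.5 in the colon RPS group before normalization. Each group was hybridized on 1 slide of its own, so a diet difference and a slide difference cannot be told apart. Each tissue had 2 slides, and no slide held both tissues. In the marker lists (limma, adjusted p under 0.05), 5 of 5 hepatocyte genes were higher in the liver (24% of all probes). In the colon 5 of 6 epithelial genes were higher (28.9% of all probes), so these 2 lists follow the tissue labels. Also higher in the colon were 7 of 7 T cell, 3 of 3 B and plasma cell and 3 of 3 stromal genes. Higher in the liver were 3 of 4 neutrophil, 2 of 3 macrophage and monocyte and 2 of 3 endothelial genes, with 1 endothelial gene higher in the colon. The colon arrays CS 3 and RPS 2 stood apart from the other 6. The mean log2 signal of the epithelial list (16 arrays normalized together) was 11.07 and 11.84 on them and 13.13 to 13.81 on the others, and that of the B and plasma cell list was 11.69 and 11.48 against 7.09 to 9.97.

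None of the 17 probes was called between the diets in the colonic mucosa by limma at the thresholds of the study (unadjusted p under 0.05 and fold change above 1.5). By that rule 2.94% of all probes on the array were called in the colon. None of the 17 had an unadjusted p under 0.05, against 5.42% of all probes, and none had an adjusted p under 0.05, as was the case for all 43603 probes. The groups overlapped for all 17 probes, against 6.52% of all probes without overlap. The RPS group was higher for 5 probes and lower for 11, with 1 probe at 0, and the median log2 difference (RPS minus CS) was -0.15 against 0.01 for all probes. A p above the threshold does not show that the diets act alike, and for most of these genes the 95% confidence interval was wide enough to hold a change of more than 1.5-fold in either direction.

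**Figure D1:**
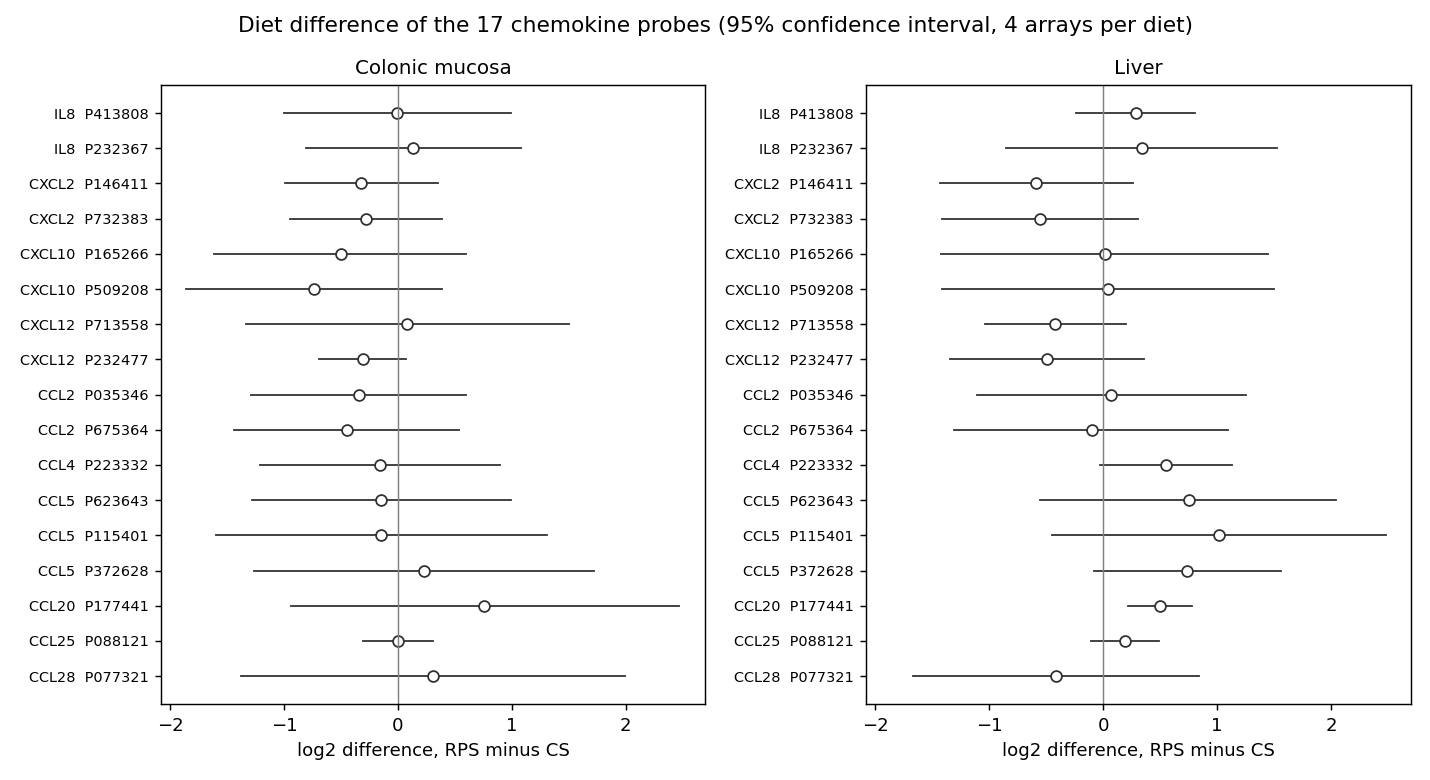
Log2 difference between the diets (RPS minus CS, x axis) of the 17 chemokine probes (y axis, gene and end of the probe name) in colonic mucosa (left) and liver (right). Circles are limma estimates and lines their 95% confidence intervals, with 4 arrays per diet, and all circles are open because no probe passed p under 0.05 with a fold change above 1.5; in the liver the interval of CCL20, 0.22 to 0.78, lies above 0.

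Of the neutrophil-attracting chemokines, IL8 had nearly the same mean in the colon of both diets, with wide error. Its normalized log2 signal at probe A_72_P413808 was 7.71, 8.14, 6.48 and 8.22 on the 4 CS arrays and 8.02, 7, 7.89 and 7.60 on the 4 RPS arrays. The low arrays were CS 3 and RPS 2, those that also stood apart in the epithelial list, and the groups overlapped. The log2 difference was -0.01, with a 95% confidence interval of -1 to 0.99 (limma, unadjusted p = 0.986), and the second IL8 probe gave 0.13 (-0.81 to 1.08). CXCL2 differed by -0.32 (-0.99 to 0.35), with 9.08, 8.16, 8.83 and 9.33 on the CS arrays and 8.28, 8.83, 8.82 and 8.19 on the RPS arrays.

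Neither the interferon-induced CXCL10 nor the stromal chemokine CXCL12 was called between the diets in the colon. CXCL10 at probe A_72_P165266 had log2 signals of 11.87, 12.87, 12.82 and 12.94 in the CS group and 13.08, 12.45, 12.01 and 10.95 in the RPS group. The highest and the lowest of these arrays were both from RPS pigs, and the difference was -0.50 (95% confidence interval -1.61 to 0.60). CXCL12 gave different pictures at its 2 probes. At A_72_P713558 the CS arrays had 11.45, 11.92, 9.48 and 11.46 and the RPS arrays 11.44, 10.05, 11.53 and 11.62, so that CS 3 and RPS 2 were more than 1 log2 unit below the others. At A_72_P232477 the same arrays had 10.08, 10.62, 10.11 and 10.41 (CS) and 9.86, 10.26, 9.86 and 9.98 (RPS), and CS 3 and RPS 2 were within the range of the others. The diet difference was 0.08 (-1.33 to 1.5) at the former and -0.31 (-0.69 to 0.07, limma unadjusted p = 0.0936) at the latter, the smallest p of the 17 probes in the colon.

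The chemokines of monocytes and T cells were not called between the diets in the colon either. CCL2, the monocyte attractant, had log2 signals of 11.89, 11.59, 12.46 and 12.70 in the CS group and 10.76, 12.26, 12.19 and 12.06 in the RPS group at probe A_72_P035346, with 1 low RPS array. Its difference was -0.34 (95% confidence interval -1.29 to 0.60). CCL4 differed by -0.16 (-1.21 to 0.90), and the 3 CCL5 probes by -0.15, -0.15 and 0.23, with intervals from -1.60 to 1.72. At CCL5 probe A_72_P115401, the one shown whole above, the arrays had 11.07, 11.74, 9.47 and 11.08 (CS) and 11.65, 9.68, 11.35 and 10.09 (RPS), and CS 3 and RPS 2 were again the lowest.

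Among the mucosal chemokines, CCL20 had the largest difference between the diets in the colon, and its pigs were spread too widely for a call. CCL20, which epithelial cells make and which draws dendritic cells and lymphocytes with CCR6, had log2 signals of 12.57, 12.53, 11.41 and 11.56 in the CS group and 14.05, 12.46, 13.77 and 10.83 in the RPS group. The RPS group held both the highest arrays and the lowest. The difference was 0.76, or 1.70-fold, with a 95% confidence interval of -0.94 to 2.47 (limma, unadjusted p = 0.327). Without array RPS 4 the difference was 1.41 and passed the rule (unadjusted p = 0.0285, adjusted p = 1, limma), while without RPS 1 it was 0.34 and without RPS 3 it was 0.43. CCL28, which draws IgA-secreting plasma cells through CCR10, had 9.54, 9.29, 7.5 and 9.02 in the CS group and 9.44, 7.93, 8.39 and 10.81 in the RPS group, a difference of 0.31 (-1.38 to 1.99). CCL25, best known from the thymus and small intestine, was the most even, with 7.23, 7.24, 6.77 and 7.11 against 7.21, 6.97, 7.09 and 7.08, and its interval of -0.31 to 0.31 left out any change above 1.5-fold.

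On the colon arrays CS 3 and RPS 2, where the epithelial list was low and the B and plasma cell list high, several of these chemokines were low. Both arrays were below each of the other 6 at 7 of the 17 probes: both IL8 probes, CXCL12 probe A_72_P713558, CCL5 probes A_72_P115401 and A_72_P372628, CCL25 and CCL28. Of all probes, 16.3% lay below the other 6 on both arrays and 18.1% above, whereas none of the 17 lay above. CCL28 was 7.5 and 7.93 on these arrays against 8.39 to 10.81 on the others, and IL8 probe A_72_P232367 was 8.41 and 9.06 against 9.58 to 10.13. The T cell list was higher on the same arrays, 11 and 10.4 against 8.66 to 10.06, while 2 of the 3 probes of the T cell chemokine CCL5 were lower. These arrays were picked after their values were seen, and the part of cell composition in the chemokine signals was not tested. Without them, 0 of the 17 probes were called between the diets, as with them.

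**Figure D2:**
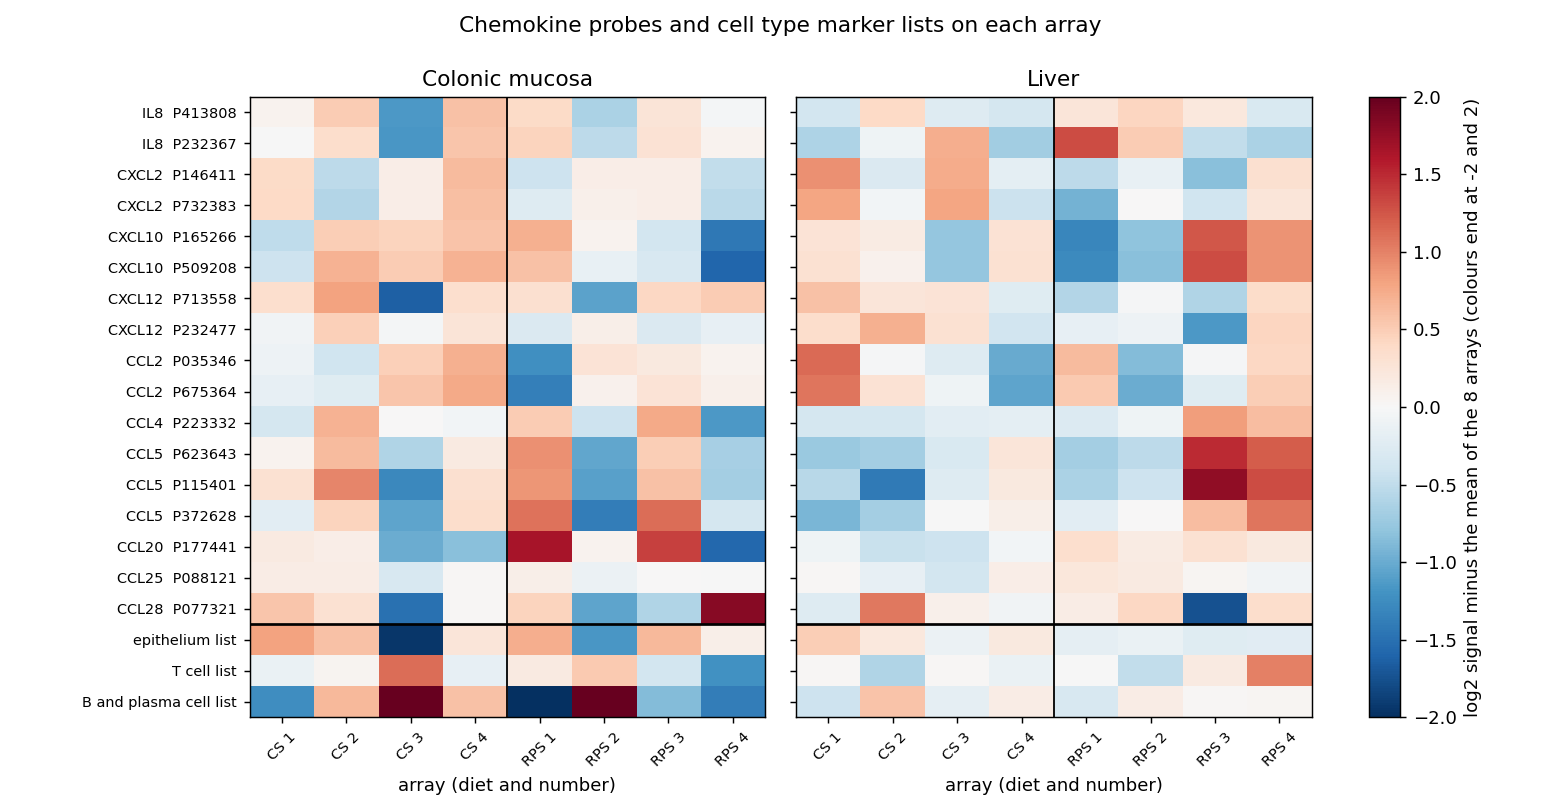
Log2 signal of each array (x axis, diet and array number) minus the mean of the 8 arrays of its tissue, for the 17 chemokine probes and, below the thick line, the mean of 3 marker lists, with red for higher and blue for lower. Colon CS 3 and RPS 2 are low for the epithelial list and for 7 chemokine probes, and liver RPS 3 and RPS 4 are high for CXCL10, CCL4 and CCL5.

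In the liver, 0 of the 17 probes passed p under 0.05 with a fold change above 1.5, against 3.56% of all probes. CCL20 alone had an unadjusted p under 0.05, against 7.59% of all probes, and CCL20 was also the 1 probe of 17 whose groups did not overlap, against 4.45% of all probes. The adjusted p was under 0.05 for none of the 17 and for 0.00229% of all probes. The RPS group was higher for 11 probes and lower for 6, and the median log2 difference was 0.07 against -0.004 for all probes.

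CCL20 in the liver had a low signal and was not called. Its log2 signal was 5.33, 4.97, 5.01 and 5.37 on the 4 CS arrays and 5.75, 5.58, 5.72 and 5.62 on the 4 RPS arrays. All RPS arrays were above all CS arrays. The means were 5.67 ± 0.08 and 5.17 ± 0.21 (SD, n = 4), a difference of 0.50 with a 95% confidence interval of 0.22 to 0.78. By limma the unadjusted p was 0.00343 and the adjusted p 0.393, and an exact permutation test (two-sided) returned 0.0286, its lower limit with 4 arrays against 4. The fold change of 1.42 was under the threshold of 1.5. In the fit of all 16 arrays, which shares the spread of the colon arrays, the difference of 0.49 had an unadjusted p of 0.402, and over all alternatives the adjusted p ran from 0.362 to 1 (limma). With normexp background correction the difference was 0.18.

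The liver arrays RPS 3 and RPS 4 had the highest CXCL10, CCL4 and CCL5 of the 8 liver arrays. CXCL10 at A_72_P165266 was 13.32 and 12.98 on these, 10.77 and 11.28 on the other RPS arrays, and 12.36, 12.25, 11.30 and 12.37 on the CS arrays. The RPS group thus held both ends of the range, and its mean was 12.09 ± 1.25 against 12.07 ± 0.52 in the CS group (SD, n = 4). CCL5 at A_72_P623643 was 12.77 and 12.50 on the same arrays, 10.60 and 10.76 on the other RPS arrays, and 10.54, 10.61, 10.98 and 11.52 on the CS arrays. CCL4 was 9.57 and 9.34 on them and 8.38 to 8.65 on the other 6. Of the 17 probes, 6 were higher on both arrays than on any other liver array, against 3.41% of all probes. The 6 were all the probes of these 3 genes, which are named here for that reason. CXCL9, another interferon-induced ligand of CXCR3, was 10.64 and 12.89 on RPS 3 and RPS 4 and 6.95 to 8.08 on the other 6. The T cell list was 7.18 and 8 on them against 6.39 to 7.02 on the others, with 3 of its 7 genes (CD2, CD3G and LCK) above the other 6 on both arrays and CD5 within their range on both. Its part in these chemokine signals was not tested. These arrays and the 3 genes, too, were picked after their values were seen.

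With 2 high and 2 low arrays in the RPS group, the diet difference of these genes had wide intervals in the liver. CCL5 differed by 0.75 (95% confidence interval -0.55 to 2.04), 1.02 (-0.45 to 2.48) and 0.74 (-0.08 to 1.56) at its 3 probes, and CCL4 by 0.55 (-0.03 to 1.13, limma unadjusted p = 0.0613). CCL4 was 8.38, 8.38, 8.51 and 8.54 on the CS arrays and 8.46, 8.65, 9.57 and 9.34 on the RPS arrays, with a small overlap. It passed the rule without array RPS 1 (0.73, unadjusted p = 0.0149, adjusted p = 0.739, limma) and without RPS 2 (0.67, unadjusted p = 0.0405, adjusted p = 0.698, limma), while without RPS 3 it was 0.36 and without RPS 4 it was 0.44. CCL5 probe A_72_P372628 passed without CS 4 (0.90, unadjusted p = 0.0498, adjusted p = 0.699, limma) and without RPS 1 (0.93, unadjusted p = 0.0366, adjusted p = 0.809, limma), and its lowest value with an array left out was 0.50. With the replicate number as a block it passed too (0.74, unadjusted p = 0.0012, adjusted p = 0.606, limma), as did A_72_P115401 (1.02, unadjusted p = 0.0433, adjusted p = 0.688, limma). CXCL10 differed by 0.02 (-1.42 to 1.45).

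The remaining chemokines of the liver were not called between the diets. CXCL2 was 6.43, 5.23, 6.26 and 5.33 on the CS arrays and 5, 5.37, 4.69 and 5.84 on the RPS arrays, a difference of -0.59 (95% confidence interval -1.43 to 0.26). CXCL12 at A_72_P713558 was 13.95, 13.61, 13.64 and 13.13 against 12.79, 13.34, 12.77 and 13.73, a difference of -0.42 (-1.04 to 0.20). CXCL12 passed the rule without array RPS 4 (-0.62, unadjusted p = 0.0367, adjusted p = 0.525, limma), and without RPS 1 or RPS 3 the difference was -0.30. CCL2 differed by 0.07 (-1.11 to 1.25), CCL25 by 0.19 (-0.11 to 0.49) and CCL28 by -0.41 (-1.67 to 0.84), the last with 1 low RPS array at 3.36 beside 5.25, 5.51 and 5.44. IL8 differed by 0.29 (-0.24 to 0.81) at A_72_P413808. Its second probe was not well above background on any liver array.

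Whether the diet difference itself differed between colon and liver was tested as the difference of the differences, in a fit of all 16 arrays. None of the 17 probes passed, by limma's adjusted p or by an unadjusted p under 0.05, against 0.00229% and 4.72% of all probes. The largest difference in size was that of CCL5 probe A_72_P115401, -1.14 (95% confidence interval -3.12 to 0.83), followed by CCL5 probe A_72_P623643 with -0.86 (-2.49 to 0.77). For CCL20 it was 0.32 (-1.41 to 2.05, unadjusted p = 0.695, limma).

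**Figure D3:**
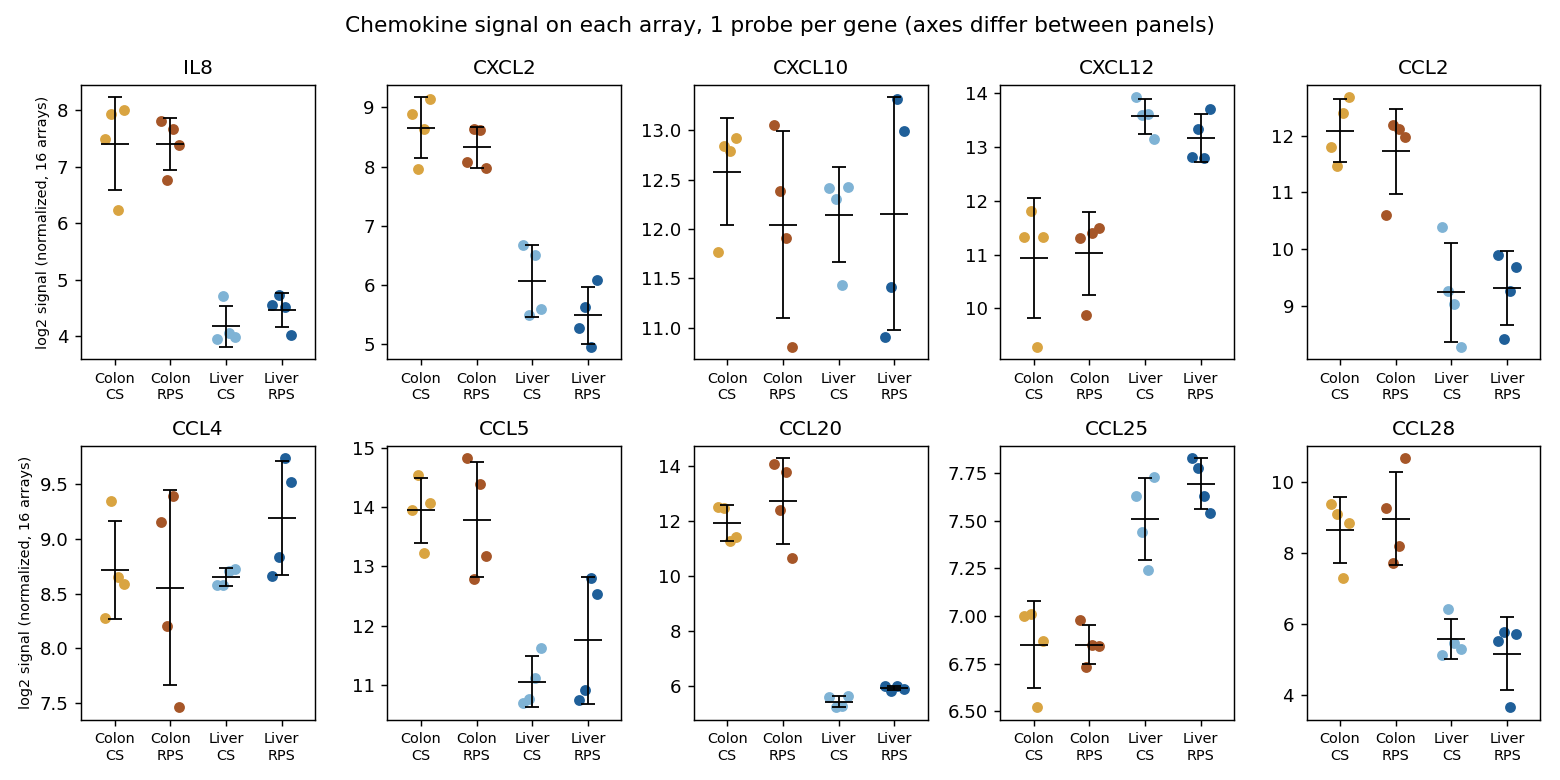
Normalized log2 signal (y axis, 16 arrays normalized together) of the 10 chemokines at their brightest probe in the 4 groups (x axis). Points are arrays, the horizontal dash is the group mean and the bars are 1 SD (n = 4); IL8, CXCL2, CCL2, CCL20 and CCL28 lie higher in all colon arrays than in any liver array, CXCL12 and CCL25 lower, and CXCL10 and CCL4 overlap.

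Most of these chemokines differed between colon and liver. Of the 17 probes, 14 differed between colon and liver (limma over 16 arrays, adjusted p under 0.05), against 52.9% of all probes. The count was also 14 with slide as a random block, a fit that had 2 slides per tissue and none shared. With a fold change above 2 as well, 12 of the 17 passed, against 29.3% of all probes. Of the 14, 11 were higher in the colon, against 28.9% of all probes, and 3 higher in the liver, against 24% of all probes. For 11 of the 17 the 8 colon and 8 liver arrays did not overlap, against 26.8% of all probes. The median log2 difference (colon minus liver) was 2.50 against 0.01 for all probes. By gene, at the brightest probe, 6 of 10 chemokines were higher in the colon, 2 higher in the liver, and CXCL10 and CCL4 were not called.

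**Figure D4:**
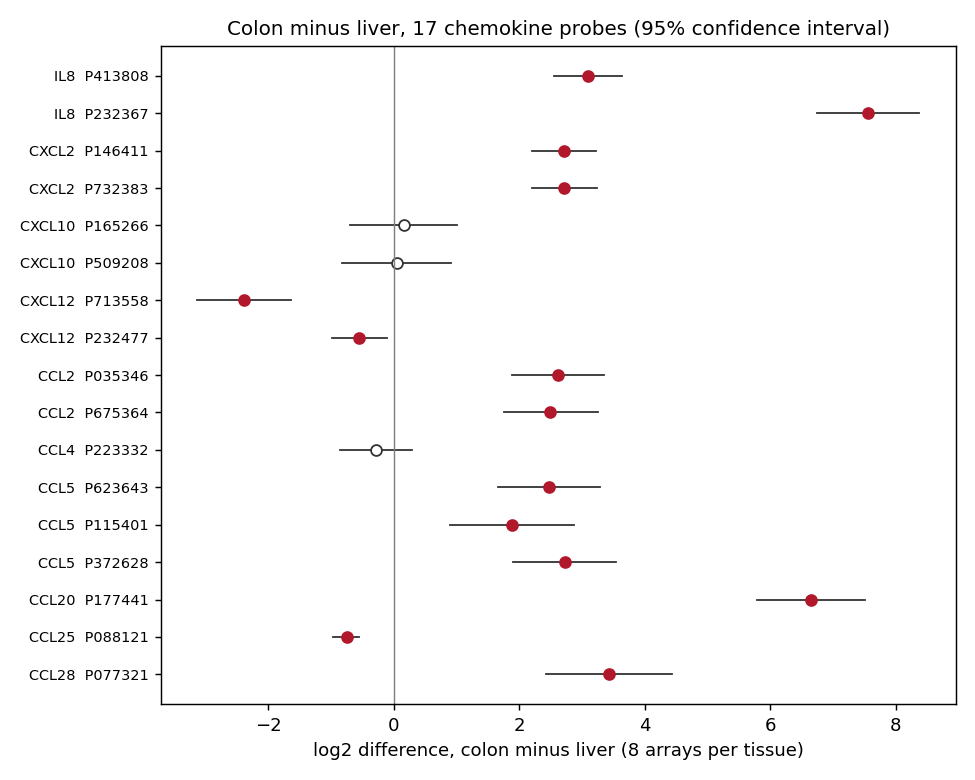
Log2 difference between colon and liver (colon minus liver, x axis) of the 17 chemokine probes (y axis), with 8 arrays per tissue. Circles are limma estimates, lines 95% confidence intervals and filled circles probes with adjusted p under 0.05; IL8 and CCL20 lie farthest to the right, CXCL12 and CCL25 to the left of 0, and CXCL10 and CCL4 are open.

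The neutrophil-attracting chemokines were higher in the colon. IL8 at A_72_P232367 ranged from 8.20 to 9.97 (median 9.59) on the 8 colon arrays and was not well above background on any of the 8 liver arrays. With the scanner's background subtraction the colon was therefore at least 123-fold higher, a bound set by the dimmest detected signal of each liver array. The adjusted p of the unbounded difference was 6.17e-10 (limma). The log2 difference was 3.14 with normexp, so the bound holds only for the scanner's subtraction. At A_72_P413808 IL8 ranged from 6.23 to 8 (median 7.58) in the colon and from 3.94 to 4.73 (median 4.29) in the liver, with 7 of 8 liver arrays above background. The difference there was 3.10 (95% confidence interval 2.55 to 3.64), or 8.55-fold, so the probes share the direction and differ in size, and with normexp it was 1.39. CXCL2 ranged from 7.95 to 9.14 in the colon and from 4.96 to 6.67 in the liver. It was 6.56-fold higher in the colon (log2 2.71, 2.20 to 3.23, adjusted p = 2.67e-07, limma), and the arrays did not overlap. With normexp the log2 difference of CXCL2 was 1.54.

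CXCL10 was detected on all arrays of both tissues and was not called between them. It ranged from 10.81 to 13.06 (median 12.59) in the colon and from 10.91 to 13.32 (median 12.37) in the liver, a difference of 0.16 (95% confidence interval -0.69 to 1.01, adjusted p = 0.760, limma). CXCL12 was higher in the liver at both probes, by unequal amounts. At A_72_P713558 it ranged from 12.80 to 13.92 (median 13.46) in the liver and from 9.29 to 11.81 (median 11.32) in the colon, without overlap, and was 5.22-fold higher in the liver (colon minus liver -2.38, -3.13 to -1.64, adjusted p = 4.14e-05, limma). At A_72_P232477 it ranged from 9.41 to 11.22 in the liver and from 9.69 to 10.46 in the colon, with overlap, and was 1.47-fold higher in the liver (-0.55, -0.99 to -0.11, adjusted p = 0.0341, limma). This second call was lost in 15 of 28 alternatives, where the adjusted p reached 0.286, while the difference stayed between -0.70 and -0.44.

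CCL2 and CCL5 were higher in the colon and CCL4 was not called. CCL2 ranged from 10.61 to 12.67 (median 12.04) in the colon and from 8.29 to 10.39 (median 9.27) in the liver, a 6.14-fold difference without overlap (adjusted p = 1.34e-05, limma). CCL5 was 5.55-fold, 3.69-fold and 6.62-fold higher in the colon at its 3 probes, with adjusted p of 6.89e-05, 0.0031 and 2.79e-05 by limma. At A_72_P623643 it ranged from 12.78 to 14.83 (median 14.01) in the colon and from 10.69 to 12.80 (median 11.02) in the liver, and the brightest liver arrays reached the lowest colon arrays. At A_72_P115401 the call was lost among the RPS arrays alone, where the adjusted p was 0.191. CCL4, which lies close to CCL5 in the genome, ranged from 7.46 to 9.39 (median 8.62) in the colon and from 8.58 to 9.74 (median 8.72) in the liver, a difference of -0.28 (95% confidence interval -0.86 to 0.29).

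The mucosal chemokines went different ways. CCL20 ranged from 10.68 to 14.09 (median 12.44) in the colon and from 5.23 to 6.01 (median 5.73) in the liver, where it was above background on all 8 arrays. It was 101-fold higher in the colon (log2 6.66, 95% confidence interval 5.79 to 7.52, adjusted p = 4.76e-09, limma), or log2 5.31 with normexp. CCL28 ranged from 7.27 to 10.66 (median 8.96) in the colon and from 3.64 to 6.40 (median 5.48) in the liver, and was 10.8-fold higher in the colon (log2 3.44, 2.43 to 4.44, adjusted p = 2.27e-05, limma), or log2 2.12 with normexp. CCL25 was higher in the liver, from 7.24 to 7.83 (median 7.63) against 6.52 to 7.01 (median 6.86) in the colon, a 1.69-fold difference (colon minus liver -0.75, -0.96 to -0.55, adjusted p = 1.23e-05, limma), or -0.46 with normexp. The arrays of the tissues did not overlap for any of these 3 genes.

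The spread between pigs of a diet was itself large for most of these chemokines. In the colon the within-group SD was above the median SD of detected probes, 0.36, for 15 of the 17 probes. It was 1.13 for CCL20 and 1.11 for CCL28, larger than for 96.4% and 96.2% of the detected probes, and 0.17 for CCL25. In the liver the SD of CCL20 was 0.16, below the median of 0.26. Of the 14 probes detected on all 8 liver arrays, 12 had an SD above that median, led by CCL5 probe A_72_P115401 with 0.98 and CXCL10 with 0.97 and 0.96.

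Most chemokine receptors, those of these ligands and others, were higher in the colon, and none was called between the diets. Of 16 receptor genes read on the array, each read at its brightest probe, 0 were called by diet in the colon (2.94% of all probes) and 0 in the liver (3.56%), and 10 were higher in the colon (28.9% of all probes) and 2 in the liver (24%). An unadjusted p under 0.05 by diet was found for 5.42% of all probes in the colon and 7.59% in the liver. Among the receptors it was found for XCR1 alone, in the colon, with a difference of -0.55 (adjusted p = 0.909, limma). The median log2 difference between the tissues was 1.54. CCR10, the receptor of CCL28, was 10.5-fold higher in the colon (8.44 ± 0.59 against 5.05 ± 0.26, SD, n = 8 arrays each, adjusted p = 1.89e-08 by limma). CCR6, the receptor of CCL20, was above background on 6 of 8 colon arrays and on none of the liver. It was at least 6.83-fold higher in the colon with the scanner's background subtraction (adjusted p of the unbounded difference 5.7e-05, limma). CCR9, the receptor of CCL25, was 7.48-fold higher in the colon, where CCL25 itself was lower. CXCR4, the receptor of CXCL12, was 7-fold higher in the colon (adjusted p = 0.00198, limma), where CXCL12 was lower. The SD of CXCR4 was 1.86 over the colon arrays and 0.23 over the liver arrays. On colon arrays CS 3 and RPS 2 the mean of the receptor list was 7.74 and 7.66, against 6.66 to 7.4 on the other colon arrays. The part of cell composition in the receptor signals was not tested. CXCR2, the receptor of IL8 and CXCL2, was 2.36-fold higher in the liver (colon minus liver -1.24, 95% confidence interval -1.58 to -0.90, adjusted p = 1.05e-05, limma), where its ligands were lower. Of the neutrophil markers on the array, 3 of 4 were likewise higher in the liver, against 24% of all probes. Among these, S100A9 was well above background on 5 of 8 colon arrays. Of the macrophage and monocyte markers, 2 of 3 were higher in the liver, while CCL2 was lower there. CCR2, the receptor of CCL2, was 1.78-fold higher in the colon, and the scavenging CXCL12 receptor CXCR7 2.57-fold. CCR3, which binds CCL5 and CCL28, was 1.61-fold higher in the liver (adjusted p = 0.0275, limma), where both ligands were lower, and CCR1, which binds CCL5, was not called (-0.09, 95% confidence interval -0.54 to 0.36). No probe named CXCR1 or CXCR3 was matched.

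**Figure D5:**
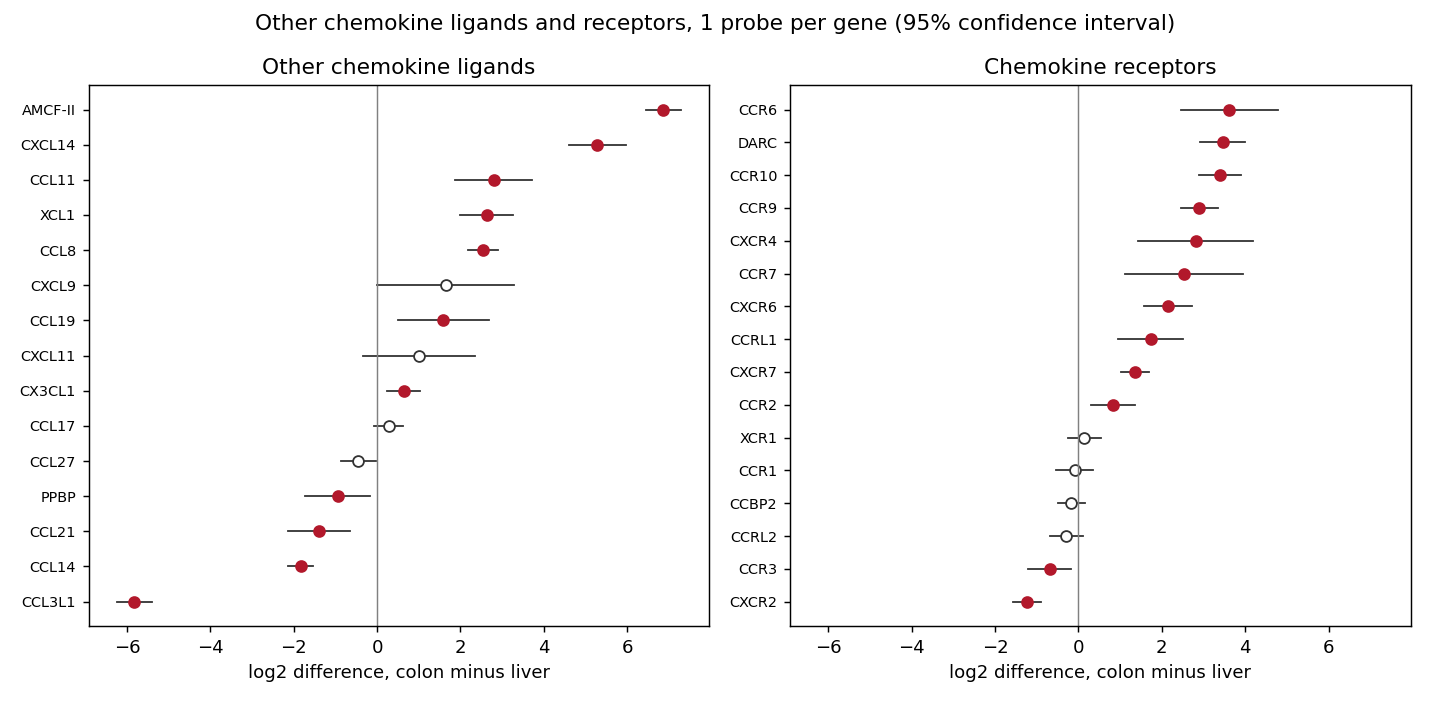
Log2 difference between colon and liver (x axis, colon minus liver, 8 arrays per tissue) of 15 other chemokine ligands (left) and 16 receptors (right), 1 probe per gene. Circles are limma estimates, lines 95% confidence intervals and filled circles adjusted p under 0.05; AMCF-II and CXCL14 lie farthest right, CCL3L1 farthest left, and 10 receptors are higher in the colon. AMCF-II, CCL11 and CCR6 were not well above background on any liver array, so the sizes of their differences rest on background signal there.

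Of 15 other chemokine ligands on the array, 7 were higher in the colon (28.9% of all probes) and 4 in the liver (24%), with a median log2 difference of 1.01. PPBP, 1 of the 4, was well above background on only 1 colon array and 1 liver array, so its difference lies near the background. AMCF-II and CCL11, among the 7, were not well above background on any liver array. With the scanner's background subtraction they were at least 59.1-fold and 5.24-fold higher in the colon. By diet, 0 were called in the colon (2.94% of all probes) and 1 in the liver (3.56%). That gene was CX3CL1, the membrane-bound ligand of CX3CR1, with log2 signals of 2.52, 2.50, 2.48 and 3.03 on the CS arrays and 3.44, 3.35, 4.42 and 3.38 on the RPS arrays. All RPS arrays were above all CS arrays, and the difference was 1.02 (95% confidence interval 0.39 to 1.65, unadjusted p = 0.00614, adjusted p = 0.444, limma). The probe was well above background on 3 RPS arrays and 1 CS array, so the low CS values set the size of the fold change.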

How the data were processed

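The authors hybridized labeled RNA of colonic mucosa and liver, 16 samples, to one-color Agilent porcine arrays. Per the file headers, Agilent Feature Extraction 10.7 wrote the deposited intensity of each spot, background-subtracted and not normalized between arrays. The same deposited files hold marks (other values) for outlier, saturated and background spots, and the authors also deposited a quantile-normalized log2 table, used as an alternative.

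Control spots were left out and outlier spots set to missing. Signals were taken to log2, quantile normalized (8 arrays of a tissue for diet, 16 arrays for tissue and interaction), averaged over spots of a probe, and fitted with limma 3.58.1 (lmFit and eBayes, R 4.3.3). The Benjamini-Hochberg adjustment ran over 43603 probes. Diet calls combined p under 0.05 before adjustment with a fold change over 1.5, and a tissue or interaction call an adjusted p under 0.05. The brightest probe over 16 arrays stood for a gene where 1 was used. In the paper the replicates were pens, 1 pig per pen was slaughtered, and the replicate was a block in the design, while gene expression was tested by t-test. The labels do not say whether the array numbers are those blocks, and the main fits used no block. Labels do not place pigs in litters either, so p-values measure the spread between these pigs only. The precision is limited by the 4 arrays per group. The members and gene lists were chosen with earlier results of these data known. The genes named were every member probe, main receptors of the members, and other chemokine system genes called by diet. CXCL9, AMCF-II, CCL11, XCR1, CCR1 and CCR3 were added after their values were seen. A gene of the receptor list is not reported here. Probe sequences come from the array files, and gene names and neighbors from the RefSeq table.

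The procedure was tested on simulated data. Alternatives were 75th percentile scaling, normexp (offset 50), quantile normalization of 16 arrays, the authors' log2 values, outlier spots kept, detected probes only, the methods' t-test, an eBayes trend, 16 arrays in 1 fit, a replicate block, fold above 2, probes averaged by gene, 1 diet only, slide as a random block, and each array left out. Figures were drawn with matplotlib.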

Additional observations from a re-analysis of the deposited data

Results flagged for a closer look

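In 8 of 68 groups of 4 arrays, 1 array lay apart from the other 3 by Dixon's criterion, and chance gives about 1 in 20 such groups. CXCL10 was low on colon CS array 1, at 11.87 beside 12.82 to 12.94 (A_72_P165266) and at 11.07 beside 12 to 12.19 (A_72_P509208), and on liver CS array 3, at 11.30 beside 12.25 to 12.37 (A_72_P165266). CCL2 was low on colon RPS array 1 at both probes, 10.76 beside 12.06 to 12.26 and 9.67 beside 11.12 to 11.32. CXCL12 probe A_72_P713558 was low on colon RPS array 2, at 10.05 beside 11.44 to 11.62. CCL28 was low on liver RPS array 3, at 3.36 beside 5.25 to 5.51. IL8 probe A_72_P413808 was high on liver CS array 2, at 4.44 beside 3.66 to 3.78. Where both probes of a gene were read, CCL2 and the colon CXCL10 were apart at both, and their probes measure the same RNA.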

How the results depend on the processing

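No alternative of scaling, background, values or model gave a diet call in the colon, and none but the replicate block gave one in the liver. Leaving out 1 array gave 0 to 1 called probes in colon and 0 to 2 in liver. With the replicate number as a block, 2 liver probes were called, both of CCL5 (1.02 at A_72_P115401 and 0.74 at A_72_P372628), and the colon count was 0. The numbers are not stated to pair pigs, and correlations of same-numbered deviations ran from -0.16 to 0.11 between liver diets and from -0.51 to 0.55 between colon diets. Between colon and liver they ran from 0.16 to 0.34 in the CS groups and from -0.08 to 0.07 in the RPS groups. Between tissues 12 to 14 of 17 probes were called, and 8 of 10 genes with probes averaged. The interaction count was 0 in 24 of 24 alternatives.

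The sign of some small differences at the brightest probes turned, and the cause was not tested. For diet in the colon, IL8 gave 0.03 (normexp), 0.06 (averaged probes), 0.13 (other probe) and -0.40 to 0.20 with an array left out. CXCL12 gave -0.11 (averaged probes), -0.31 (other probe), -0.08 (without CS 3 and RPS 2, chosen after seeing the data) and -0.45 to 0.46 with an array left out. CCL5 gave 0.23 (other probe). With an array left out, CCL5 ran from -0.48 to 0.17, CCL2 from -0.53 to 0.01, CCL4 from -0.43 to 0.20 and CCL28 from -0.25 to 0.71. For diet in the liver, CXCL10 ran from -0.40 to 0.46, CCL28 from -0.62 to 0.10 and CCL2 from -0.26 to 0.46 with an array left out, and CCL2 gave -0.02 (averaged probes) and -0.10 (other probe). Between tissues, CXCL10 gave -0.11 (75th percentile scaling), -0.12 (RPS arrays) and -0.05 to 0.37 (an array left out), and CCL4 0.07 (CS arrays). In the interaction, an array left out gave -0.07 to 0.87 for CXCL12 and -0.12 to 1.01 for CCL20. With normexp the tissue differences ran from 1.14 (CXCL2 A_72_P732383) to 5.31 (CCL20) among the 11 probes higher in the colon. Depth of signal over background limits IL8, CX3CL1, AMCF-II, CCL11 and CCR6 in the liver.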
